A study of Chlamydomonas reinhardtii with 6 samples.

Results

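Chlamydomonas reinhardtii is a unicellular green alga that divides by multiple fission: a cell grows through a long G1 phase and then runs through a rapid series of DNA replication and division rounds. Passage into these rounds is driven by cyclin-dependent kinases, which act only when bound to a cyclin, and is held back by the retinoblastoma pathway, whose single Rb protein in this alga is encoded by MAT3. Ribonucleotide reductase makes the deoxynucleotides that both replication and DNA repair consume. The genes described here are 7 from this machinery, chosen by identifier from the 13452 genes of the deposited table of normalised read counts, and all 7 were present and passed the filter on low values. They comprise 3 cyclin-dependent kinases (CDKG1, Cre06.g271100; CDKB1, Cre08.g372550; CDKA1, Cre10.g465900), 2 cyclins (CYCA1, Cre03.g207900, and an L-type cyclin, Cre07.g321650), MAT3 (Cre06.g255450) and an R2-like subunit of ribonucleotide reductase (Cre12.g509400). The names of CDKG1, the L-type cyclin and the R2-like subunit are given in the authors' deposited table. The names CDKB1, CDKA1, CYCA1 and MAT3 came with the list of identifiers, and the files used here do not annotate those 4 genes.

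Messenger RNA was sequenced from 6 independent stationary cultures of strain CC-125 (137c mt+), all grown for 4 days in acetate medium and held in weak white light of 3.6 µmol m-2 s-1 next to narrowband UV-B tubes of 0.07 mW/cm2. In the 3 UV-B cultures a glass filter with its edge at 311 nm let the UV-B through for 1 h, and in the 3 no UV-B cultures a filter with its edge at 360 nm held it back for the same time. The comparison asks how transcripts respond to 1 h of a UV-B level used for acclimation, and light between the 2 filter edges differed along with UV-B. The libraries held 10409016, 9529134 and 11214409 reads assigned to genes with UV-B, against 9846545, 7868534 and 11972794 without. The cultures were not described as synchronised, and a change in the share of cells at a given cycle stage cannot be told apart from a change in RNA per cell. Values below are normalised read counts relative to an effective library size, without correction for gene length, so levels are compared between libraries and not between genes.

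After 1 h of UV-B the 7 genes divided into 3 that fell and 4 that rose. CDKG1, CYCA1 and CDKB1 transcripts fell to between 0.455 and 0.618 of their no UV-B means. Transcripts of the L-type cyclin and of the ribonucleotide reductase R2-like gene rose to 2.95 and 2.90 times their no UV-B means, and those of MAT3 and CDKA1 to 1.56 and 1.30 times. Each gene passed an adjusted p of 0.05 in limma's test across 13415 genes (Benjamini-Hochberg over all of them). That threshold was passed by 59.0% of all genes, with 29.5% raised and 29.6% lowered, so passing it does not set these genes apart. The UV-B and no UV-B values of each of the 7 genes did not overlap, 4 being higher and 3 lower. The same held for 63.2% of all genes, with 31.7% higher and 31.6% lower. A change of at least 2-fold past the threshold was found in 2 raised genes and 1 lowered gene of the 7. Over all genes, 6.57% rose and 6.48% fell by that much. The median absolute log2 fold change was 0.82 over the 7 genes and 0.40 over all genes tested. The 7 genes were chosen with earlier results of these data known. They lay between percentiles 65.8 and 91.6 of normalised read count without UV-B, and log2(value + 1) understates changes of low genes. The parts of that choice and of level in the difference were not tested. The scale also enters the shares of all genes that changed as much, given here and below.

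**Figure D1:**
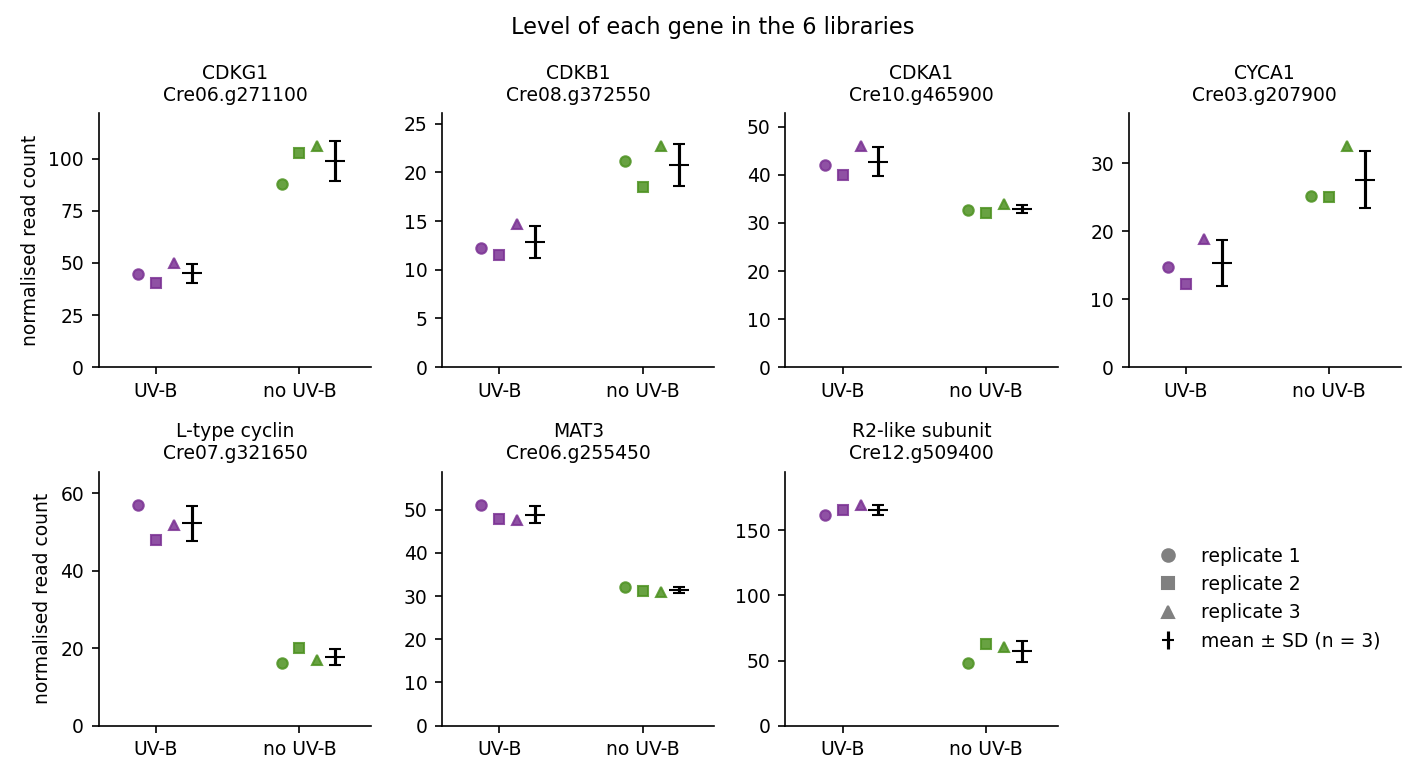
Normalised read count of each of the 7 genes in every library, with UV-B cultures on the left of each panel and no UV-B cultures on the right. Symbols are the 3 replicates and black bars the mean ± SD. In each panel the 3 UV-B values lie wholly below (CDKG1, CDKB1, CYCA1) or wholly above (CDKA1, L-type cyclin, MAT3, R2-like subunit) the 3 no UV-B values.

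CDKG1 encodes a kinase that, with D-type cyclins, phosphorylates the Rb protein in this alga and whose amount scales with mother cell size to set the number of divisions. Its normalised read count was 44.8, 40.3 and 49.8 in the UV-B cultures, against 88.0, 103 and 106 in the no UV-B cultures. The highest UV-B value lay 38.2 below the lowest no UV-B value, and no other gene of the 7 fell as far. The mean was 45.0 ± 4.73 with UV-B and 98.8 ± 9.55 without (SD, n = 3 each). CDKG1 thus fell by 54.5%, with a log2 fold change of -1.12 ± 0.09 (moderated SE), an adjusted p of 1.56e-12 by limma and a 95% interval of -1.29 to -0.94. In the distribution over all genes, 5.31% had a log2 fold change as low or lower. The authors' deposited table gives CDKG1 a log2 fold change of -1.13 with a false discovery rate of 4.92e-32.

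CDKB1 is the plant-type kinase that Chlamydomonas requires for mitosis. Its values were 12.3, 11.6 and 14.7 with UV-B, against 21.2, 18.5 and 22.7 without UV-B. The groups did not overlap, and 3.73 separated the highest UV-B culture from the lowest no UV-B culture. CDKB1 averaged 12.8 ± 1.68 with UV-B and 20.8 ± 2.14 without (SD, n = 3 each), a log2 fold change of -0.66 ± 0.12 (limma adjusted p = 1.53e-05). It was the kinase with the fewest reads, 420 over the 3 UV-B libraries and 606 over the 3 no UV-B libraries.

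CDKA1, the kinase of the type conserved across eukaryotes and bearing on the timing of division entry in this alga, was the one kinase of the 3 that rose. It had values of 42.1, 40.0 and 46.0 in UV-B cultures and 32.7, 32.1 and 33.8 in no UV-B cultures. All 3 UV-B values exceeded the highest no UV-B value, by at least 6.17. The means were 42.7 ± 3.02 with UV-B and 32.9 ± 0.906 without (SD, n = 3 each). The log2 fold change of 0.37 ± 0.09 (limma adjusted p = 0.00052, 95% interval 0.19 to 0.54) was the smallest of the 7 in size, and 26.8% of all genes rose as much or more.

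**Figure D2:**
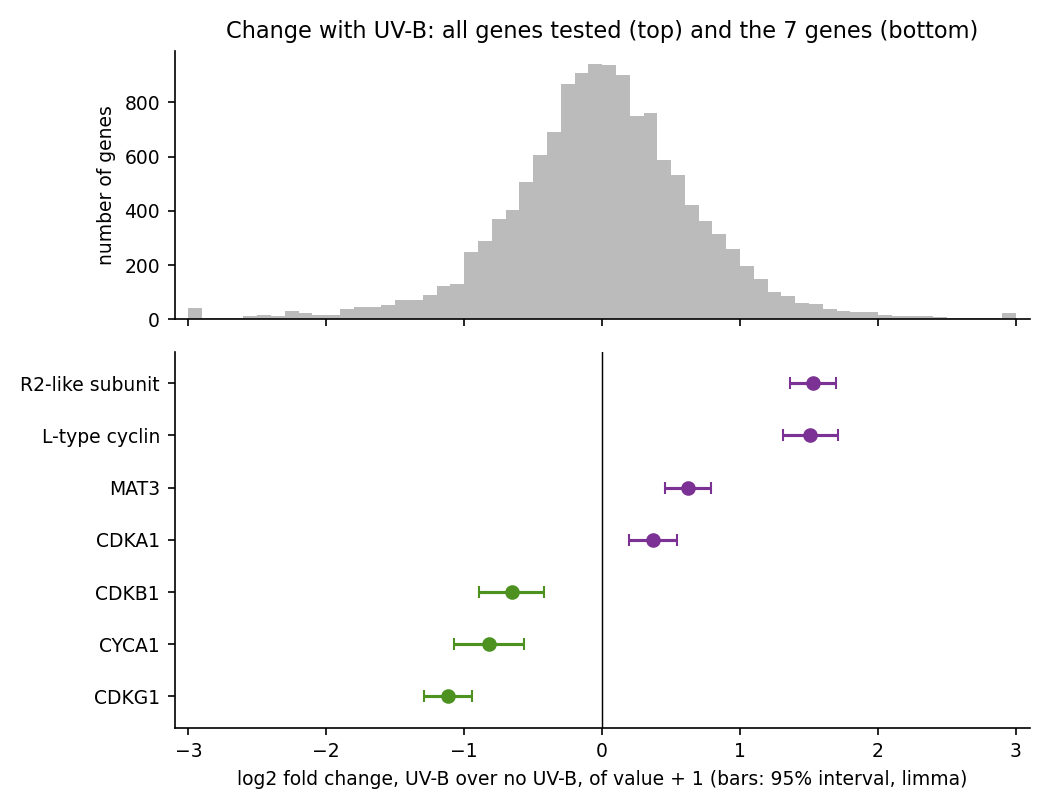
Top, number of genes by log2 fold change (UV-B over no UV-B, log2 of value + 1) for the 13415 genes tested, with 56 genes beyond 3 in absolute value placed in the end bins. Bottom, the same quantity for the 7 genes, with 95% intervals from limma. The intervals of CDKG1, CYCA1 and CDKB1 lie below 0 and those of the other 4 genes above 0.

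The cyclins moved in opposite directions. CYCA1, an A-type cyclin of the class that binds cyclin-dependent kinases in replication and mitosis, had values of 14.8, 12.3 and 18.9 with UV-B, against 25.2, 25.1 and 32.5 without. Its UV-B cultures were all lower, and replicate 3 was the highest of each group. CYCA1 averaged 15.3 ± 3.34 with UV-B and 27.6 ± 4.26 without (SD, n = 3 each), a log2 fold change of -0.82 ± 0.12 (limma adjusted p = 1.45e-06). Its coefficient of variation of 21.8% within the UV-B group was the largest of the 7 genes, where counting error alone would give 7.99%.

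The L-type cyclin belongs to a class known in animals for pairing with kinases of transcription and pre-mRNA splicing and not for driving the cycle, although its functional category in the authors' deposited table is the cell cycle. It was measured at 57.1, 47.9 and 51.8 in UV-B cultures, against 16.1, 20.2 and 16.9 in no UV-B cultures. Every UV-B culture was above every no UV-B culture, with a gap of 27.7 between the groups. From means of 52.2 ± 4.65 with UV-B and 17.7 ± 2.16 without (SD, n = 3 each), the log2 fold change was 1.51 ± 0.10 (limma adjusted p = 3.06e-14, 95% interval 1.31 to 1.71). Only 2.09% of all genes rose as much or more. The authors' deposited table lists it at a log2 fold change of 1.58.

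MAT3, the Rb-related gene linked to the mating-type locus, whose loss makes cells divide at a very small size, rose moderately. MAT3 values were 51.2, 47.9 and 47.6 with UV-B, against 32.1, 31.1 and 30.9 without UV-B. The replicates were close to each other in both groups, with coefficients of variation of 4.06% with UV-B and 2.15% without, where counting error alone would give 4.37% with UV-B and 5.87% without. The mean was 48.9 ± 1.99 with UV-B and 31.4 ± 0.674 without (SD, n = 3 each), 55.8% higher. On the log2 scale the change was 0.62 ± 0.08 (limma adjusted p = 1.52e-07), and 15.9% of all genes rose as much or more.

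The ribonucleotide reductase R2-like gene rose by about as much as the L-type cyclin, and which gene changed more depends on the setting: edgeR on recovered reads gave 1.54 for the R2-like gene and 1.57 for the L-type cyclin. The R2 subunit carries the radical that the large subunit uses to reduce ribonucleotides. Normalised read counts of Cre12.g509400 were 162, 165 and 170 with UV-B, against 48.2, 62.7 and 60.4 without. The UV-B cultures lay close together, with a coefficient of variation of 2.39% against 13.7% in the no UV-B cultures, and 99.1 separated the groups. Means were 166 ± 3.95 with UV-B and 57.1 ± 7.81 without (SD, n = 3 each), and the log2 fold change was 1.53 ± 0.08 (limma adjusted p = 3.94e-16, 95% interval 1.36 to 1.70). In the authors' deposited table this gene has a log2 fold change of 1.54 with a false discovery rate of 2.11e-64.

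That table holds genes that changed by more than 2-fold, and 3 of the 7 genes are in it. CDKB1, CDKA1, CYCA1 and MAT3 are not, and their log2 fold changes by edgeR on the recovered reads were -0.70, 0.38, -0.85 and 0.64, all under 1 in absolute value. One feature ran across several of the genes: the replicate 3 library had the highest value of CDKG1, CDKB1, CDKA1 and CYCA1 in the UV-B group, and the replicate 3 library of the no UV-B group was likewise the highest for the same 4 genes. These were also the deepest library of each group, with 11214409 and 11972794 reads, and the part of depth in these values was not tested. Leaving out either library kept each gene's direction and its call.

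Because the scaling of a library enters the values of all its genes alike, the other 6 genes were also set against CDKA1 within each library. This measure was added after the values had been seen, and only its change between groups is read, since gene length is not corrected for. CDKA1 itself rose to 1.30 times its no UV-B mean, so the ratios enlarge the falls and reduce the rises. The ratio of CDKG1 to CDKA1 was 1.06, 1.01 and 1.08 in the UV-B cultures, against 2.69, 3.20 and 3.13 in the no UV-B cultures. The ratio of CDKB1 to CDKA1 averaged 0.300 ± 0.0179 with UV-B and 0.632 ± 0.0493 without, and that of CYCA1 to CDKA1 averaged 0.356 ± 0.0522 with UV-B and 0.838 ± 0.106 without (SD, n = 3 each). Both ratios were thus lower in every UV-B culture than in any no UV-B culture. The R2-like subunit stood at 3.89 ± 0.222 times CDKA1 with UV-B and at 1.74 ± 0.244 times without, and the L-type cyclin at 1.23 ± 0.118 times with UV-B and 0.541 ± 0.0772 times without (SD, n = 3 each). MAT3 moved least against CDKA1, with ratios of 1.21, 1.20 and 1.04 with UV-B and 0.983, 0.971 and 0.912 without. The groups did not overlap in any of the 6 ratios. On plain values the same held for 63.2% of all genes, and the share for ratios to CDKA1 was not computed. A two-sided exact permutation test gave p = 0.1 for each of the 6 ratios (adjusted p = 0.1 over the 6). That is the smallest value that 3 cultures against 3 allow. Groups that do not overlap always give it, so the test adds no evidence to the values.

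**Figure D3:**
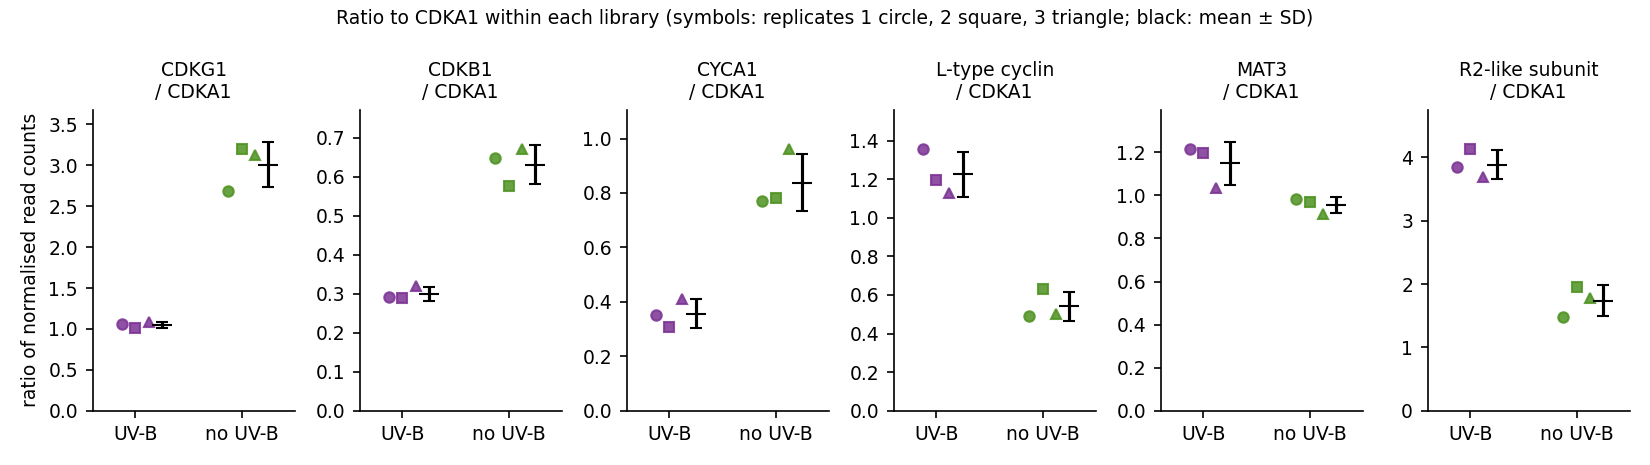
Ratio of the normalised read count of each of the other 6 genes to that of CDKA1 in the same library, UV-B cultures left and no UV-B cultures right, with the mean ± SD in black. The ratios of CDKG1, CDKB1 and CYCA1 are lower with UV-B, those of the L-type cyclin, MAT3 and the R2-like subunit higher, and the UV-B and no UV-B points do not overlap in any panel. On plain values the groups did not overlap for 63.2% of all genes tested.

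Other genes annotated with cell cycle terms were collected by words in the gene descriptions, symbols and categories of the authors' deposited table. Since that table lists only genes called changed, a count past the threshold carries no evidence, and what is described is direction. Of 25 matched genes outside the 7, 24 were tested, and 19 fell and 5 rose, a share of 79.2% lowered. Of the 25, 16 matched by symbol or description and the others by category alone. The matches include protein folding enzymes and a gene matched through a domain name, described below. Among all 1310 tested genes of that table with any annotation text, 46.5% were lowered. No test of this difference was made.

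In the DNA replication list 6 of 7 tested genes fell, and the R2-like subunit was the 1 that rose. A type IIB DNA topoisomerase gene (Cre14.g619800) had values of 1.89, 1.75 and 2.57 with UV-B, against 11.1, 8.71 and 9.90 without. It was the largest fall of the list, with a log2 fold change of -1.83 ± 0.17 (limma adjusted p = 6.82e-11), and -2.24 by edgeR on recovered reads. DNA topoisomerase II (Cre01.g009250), which untangles replicated DNA, averaged 5.80 ± 1.53 with UV-B and 12.8 ± 0.828 without, and a minichromosome maintenance gene (Cre10.g455850), a subunit type of the replicative helicase, averaged 7.98 ± 0.340 with UV-B and 16.2 ± 1.01 without (SD, n = 3 each). The other 3 lowered genes were picked out after their values were seen, with log2 fold changes between -0.96 and -0.86. They are a thymidylate kinase domain gene (Cre03.g190750), the DNA polymerase alpha catalytic subunit (Cre04.g214350) and CDC45 (Cre06.g270250). At low values log2(value + 1) understates the change, and edgeR on recovered reads gave -1.20 for DNA polymerase alpha and -1.14 for CDC45. The value of the thymidylate kinase domain gene depends on the pseudocount, since it had 18 reads with UV-B and 57 without: its means were 0.551 ± 0.126 with UV-B and 2.06 ± 0.707 without, and edgeR gave Cre03.g190750 a log2 fold change of -1.83. A gene described as similar to CDT1, a licensing factor of replication origins (Cre03.g163300), lay under the filter on low values, with 19 reads with UV-B and 43 without, and its groups overlapped. Without the filter it had a log2 fold change of -0.68 ± 0.22 (limma adjusted p = 0.0082), which makes 7 lowered genes of the list in place of 6, and the authors' deposited table gives it -1.34.

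The cyclin list matched 2 genes beside the L-type cyclin, and both fell. An A/B-type cyclin gene (Cre10.g466200) had 3.49, 2.48 and 2.48 in the UV-B cultures and 5.37, 5.01 and 7.49 in the no UV-B cultures, a log2 fold change of -0.86 ± 0.18 (limma adjusted p = 0.000119). A D-type cyclin gene (g11702), of the class that partners kinases acting on Rb, had 1.98, 2.78 and 2.40 with UV-B, against 4.72, 4.49 and 4.99 without, and a log2 fold change of -0.76 ± 0.17 (limma adjusted p = 0.000339). By edgeR on recovered reads the log2 fold changes were -1.11 for the A/B-type and -0.996 for the D-type cyclin gene. In both genes the groups did not overlap, as in 63.2% of all genes tested, at levels of 77 to 177 reads per group. Both entered the list through a table of changed genes from these data, so the separation carries no evidence. A further gene (Cre03.g174476), which carries the same domain name as the L-type cyclin (CCL1) and the cell cycle category without the word cyclin, rose to 1.72 ± 0.163 with UV-B, against 0.826 ± 0.164 without (SD, n = 3 each). Its limma adjusted p was 0.0106 at 56 reads with UV-B and 24 without, and DESeq2 did not call it (adjusted p = 0.0651). CDKG1 was the only match of the list of cyclin-dependent kinases.

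The RB and E2F list matched 2 genes. Cre13.g573000, categorised in the E2F/DP family of transcription factors, which Rb proteins bind, rose to 3.33 ± 0.485 with UV-B, against 0.855 ± 0.340 without (SD, n = 3 each), at 109 and 26 reads. Its log2 fold change was 1.23 ± 0.19 (limma adjusted p = 2.32e-06), and 1.88 by edgeR on recovered reads. The other match (Cre03.g177500, which fell by 1.03 on the log2 scale) was made through the domain name TB2_DP1_HVA22 and is not a gene of this pathway, although it is counted among the 19 lowered matches above. The histone list matched 1 gene, a histone H3 variant (Cre16.g661450), which averaged 2.78 ± 0.927 with UV-B and 6.52 ± 1.13 without.

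Of 18 genes in the mitosis and division list 12 fell and 6 rose. The list overlaps those above in the A/B-type, D-type and L-type cyclins, CDC45 and the E2F/DP family gene. Its largest rise was in a septin-like gene (Cre12.g556250), of a family of GTP-binding proteins first known from budding yeast division, which had 46.2, 49.3 and 48.3 with UV-B, against 7.68, 10.8 and 12.3 without. The log2 fold change of the septin-like gene was 2.14 ± 0.12 (limma adjusted p = 6.36e-16). An Aurora-like kinase gene (Cre12.g498650), from the family of mitotic spindle kinases, had 37.2, 36.5 and 48.1 with UV-B, against 75.6, 73.2 and 97.1 without, a log2 fold change of -0.995 (limma adjusted p = 6.92e-10). As with CDKG1, replicate 3 was the highest of each group. Further lowered matches, named after their values were seen, include a spindle pole body protein (Cre09.g404500, log2 fold change -0.997 ± 0.154), a structural maintenance of chromosomes protein (Cre02.g086650, -0.90 ± 0.16) and separase (Cre01.g029200, -0.65 ± 0.19). At such low values log2(value + 1) understates the change, and edgeR on recovered reads gave -1.18, -1.10 and -1.02 in the same order. An anaphase promoting complex subunit 1 gene (Cre13.g579050) rose, with a log2 fold change of 1.04 ± 0.17. Several members of this list enter by category alone, such as cyclophilin-type isomerases (Cre06.g292500 and Cre12.g561000), which are protein folding enzymes.

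**Figure D4:**
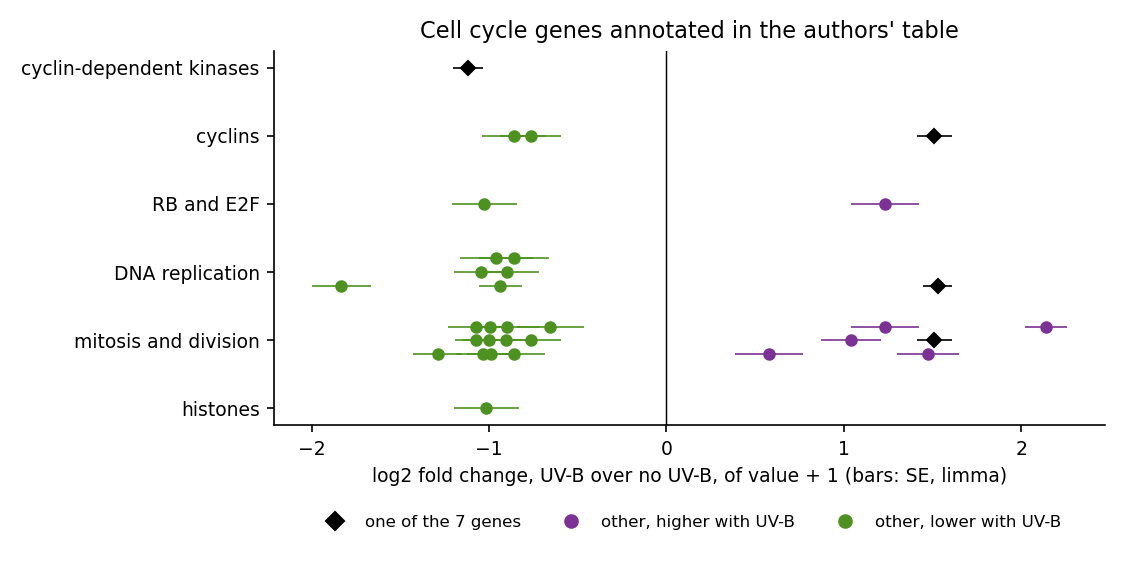
Log2 fold change (UV-B over no UV-B, log2 of value + 1) of the tested genes that match each word list in the authors' deposited table, with limma's standard errors. Black diamonds are genes of the 7. In the replication and division lists the lowered genes lie between -1.83 and -0.65 on this scale, which understates changes of low genes. By edgeR on recovered reads the genes at these ends had -2.24 and -1.02. The R2-like subunit is the 1 raised gene of the replication list at 1.53.

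The genes whose profiles over the 6 libraries lay closest to each of the 7 were taken by the distance between log2 values centred on each gene's mean, which is a description over 6 libraries that share their depth and scaling. Nearest to CDKG1 was a sulfatase-domain gene (Cre04.g226600, log2 fold change -1.17), followed by Cre03.g174350, described as a predicted PWR protein. Nearest to CDKB1 was a glucan synthase gene (Cre03.g185350) at much lower values, 0.664 with UV-B and 1.60 without. At such values log2(value + 1) understates its change, given as -0.65, so its likeness to CDKB1 depends on the pseudocount. The nearest genes to CDKA1, CYCA1 and MAT3 (Cre02.g077750, Cre17.g705300 and Cre17.g726350) are not in the annotated table. For the L-type cyclin it was Cre08.g372300 (log2 fold change 1.55), and for the R2-like subunit a serine protease gene (Cre10.g420550, log2 fold change 1.58). Of the 21 nearest genes, 3 for each, 14 have no annotation text in the files and so could not match a cell cycle list, and 0 of the other 7 did.

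All 7 genes matched by identifier in the gene table of RefSeq (assembly Chlamydomonas_reinhardtii_v5.5), and 0 of their gene models overlap another model of that table. The build behind the deposited values is not given, so that table served to find neighbours and for nothing else. Genes next to CDKB1 and CDKA1 did not pass the threshold on either side, with log2 fold changes between -0.13 and 0.19. Both neighbours of CDKG1 fell, by 0.50 (Cre06.g271050) and 0.36 (Cre06.g271150) on the log2 scale, less than CDKG1 itself. Next to MAT3, Cre06.g255400 rose by 0.35 (limma adjusted p = 0.0137), in the same direction as MAT3, and the gene on the other side did not pass the threshold. On one side of the R2-like gene, Cre12.g509450 fell by 0.75, opposite in direction to it, and the gene on the other side did not pass the threshold. Over all genes tested 59.0% passed it, with 29.5% raised and 29.6% lowered, so such neighbours are common. No neighbour of CYCA1 or of the L-type cyclin was among the genes tested.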

How the data were processed

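The submitters' processing notes name TopHat2, HTSeq (0.5.3p9) and edgeR (3.4.2) as tools. For genome build, gene models and strand setting of the counting, nothing is given in the sources used here. What the authors deposited is a normalised signal for each gene of 6 libraries, read counts over an effective library size. A second table deposited by the authors covers 2596 genes with their log2 fold change, log2 CPM, p-value and false discovery rate. Values were whole multiples of what 1 read is worth, to within 0.01 reads (100% of values per library), so reads could be recovered. In no UV-B replicate 3 no gene had exactly 1 read, and the step came from the spacing of values. TMM on the recovered reads returned the authors' scaling. No column was left unused (0).

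The comparison was tested with limma 3.58.1 (R 4.3.3, mean-variance trend) on log2(value + 1), which understates changes of low genes. It covered 13415 genes that reached 1 in 3 or more libraries, with a Benjamini-Hochberg adjusted p of 0.05. edgeR 4.0.16 and DESeq2 1.42.0 on recovered reads were alternatives. The limma step was tested on simulated data of 13415 genes: of 100 genes changed 2-fold 86 were called, and of 100 changed 4-fold 100 were called. Of 13215 unchanged genes 14 were called. The simulation changed 200 genes, far fewer than the 59.0% called in these data, so its rates may not carry over. Python 3.11.15 with SciPy 1.17.1 served for the rest. The members and lists were chosen with earlier results of these data known. Named genes are all 7 members, up to 4 genes per list with the smallest adjusted p, and 3 nearest profiles per member. One gene that this rule names is not reported here. Dots in category names were read as spaces. Reads limit the precision of low genes (median 97 reads per gene and library), and counting error does not include variation between cultures. Sequences of the genes are not shown.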

Additional observations from a re-analysis of the deposited data

How the results depend on the processing

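Over 20 alternative settings (other pseudocounts, filters, scalings, limma options, edgeR and DESeq2 on recovered reads, an adjusted p of 0.01, the replicate number as a block, and each library left out) the 7 genes kept their directions and calls, 4 raised and 3 lowered. The widest range was that of CYCA1, from -0.97 without UV-B replicate 3 to -0.68 without UV-B replicate 2. CDKA1 ran from 0.31 to 0.47, and its largest adjusted p was 0.0105, by limma without a trend. The ratio to CDKA1, chosen after seeing the data, kept the sign of all 6 genes, with MAT3 at 0.26 on the log2 scale in place of 0.62. Since CDKA1 changed least of the 7, the signs were bound to stay, and their staying carries no evidence. Whether the replicate numbers pair the libraries was not settled. Deviations of same-numbered libraries correlated at 0.0446, 0.0244 and 0.120 across genes. The value of 0.120, between the replicate 3 libraries, was the largest of all and above the pairing threshold of 0.1. UV-B replicate 2 correlated best with no UV-B replicate 1 (0.0601), and the other unlike-numbered libraries correlated between -0.1007 and -0.0058. With the replicate block, limma called 4020 genes raised and 4082 lowered, and CDKA1 had an adjusted p of 0.00041. The block changed no call among the 7. Scaling to an equal total shifted the median gene by 0.09 and gave 4538 raised and 3191 lowered genes, and DESeq2 gave 3355 and 3475.

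Some list counts moved with their construction. With a minimum value of 5, which tests fewer genes, 1 cyclin and 3 replication genes were lowered, and 0 RB and E2F genes were raised and 0 lowered. With words in symbols and descriptions only, the mitosis and division list had 1 raised and 5 lowered genes and the RB and E2F list 0 raised. Without a filter, or with an equal total, 7 replication genes were lowered. With 1 library left out, replication genes lowered were 5 to 6 and division genes raised 5 to 6.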
